A study of Mus musculus with 9 samples.

Results

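The transcripts of 10 genes that carry glucose from the cell membrane to lactate were read in 9 RNA libraries of mouse acute myeloid leukemia cells. The genes were taken by name: the glucose transporter Slc2a1 and the enzyme genes Hk2, Gpi1, Pfkl, Aldoa, Tpi1, Gapdh, Pgk1, Pkm and Ldha. They filled 11 of the 55536 gene rows of the deposited table, since the name Aldoa stands on 2 rows. The leukemia was made by putting the fusion oncogene MLL-AF9, with GFP, into c-kit+ cells of WT or IRF7-/- C57BL/6J mice by retrovirus, and the IRF7-/- mice carry a PGK-beta-geo cassette in place of exons 2 and 3 of Irf7. GFP+ leukemia cells were given at 1000000 per mouse to unirradiated C57BL/6J recipients aged 6 to 8 weeks, and bone marrow was taken on day 18 and sorted by surface c-kit. Cells of the WT leukemia without c-kit made up the group AML-WT-c-kit-, named the c-kit- group here. Those with c-kit made up AML-WT-c-kit+, here the WT c-kit+ group. The remaining group is labelled AML-IRF7-/--c-kit+, and each group has 3 libraries. The genotype labels read control-GFP overexpression for the WT groups and IRF7-/--GFP overexpression for the other, so the GFP retrovirus and the transplantation were common to all groups. The labels do not say how many mice stand behind a library, and p-values measure only the spread between these libraries.

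Glycolysis splits glucose into pyruvate in the cytosol and yields ATP without oxygen. The upper steps bring glucose into the cell, phosphorylate it and commit it to breakdown, and the lower steps, from Gapdh onward, give back ATP and NADH. Lactate dehydrogenase turns pyruvate to lactate and restores NAD+. Fast-growing cells, leukemia cells among them, are known for high glycolysis, and the hypoxia-inducible factor and Myc are known to act on many of these genes. Gapdh is also in wide use as a reference gene, on the premise that its level changes little between samples.

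The study set each quantitative PCR value against Gapdh, and its mouse Gapdh primers are shown because the deposited levels bear on that choice. The capitals mark the bases of the forward primer that lie past the junction of exons 2 and 3 of the Gapdh transcript ENSMUST00000118875.7, which has 7 exons.
Gapdh forward: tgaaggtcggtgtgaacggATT
Gapdh reverse: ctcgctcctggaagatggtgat
The forward primer covers positions 245 to 266 of the transcript and the reverse primer positions 454 to 475 in exon 3, so the product is 231 bases long. In GENCODE M21, 38 genes, Gapdh included, hold an exact match to both primers within 1 transcript. Among the others are Gm7336, Gm12671 and Gm10359, copies of Gapdh that are described with its levels below.

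Promoter sequence is shown for 3 of the genes because their levels took different courses in the libraries labelled IRF7-/-: Ldha and Gapdh rose and Pgk1 did not pass the test. Each is the 250 bases before a RefSeq transcript start in GRCm38.p6, written 5′ to 3′ on the strand of the gene. Capitals mark ACGTG or GCGTG on either strand, the core of the site bound by hypoxia-inducible factors, and ACGTG also lies inside the E-box CACGTG that Myc can bind.
Ldha promoter, chr7:46845554-46845803, plus strand: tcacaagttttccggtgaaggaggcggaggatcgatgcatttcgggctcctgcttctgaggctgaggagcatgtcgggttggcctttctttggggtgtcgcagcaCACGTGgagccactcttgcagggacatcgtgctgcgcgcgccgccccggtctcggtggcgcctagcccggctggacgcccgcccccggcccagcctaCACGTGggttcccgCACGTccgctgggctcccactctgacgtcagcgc
Gapdh promoter, chr6:125165774-125166023, minus strand: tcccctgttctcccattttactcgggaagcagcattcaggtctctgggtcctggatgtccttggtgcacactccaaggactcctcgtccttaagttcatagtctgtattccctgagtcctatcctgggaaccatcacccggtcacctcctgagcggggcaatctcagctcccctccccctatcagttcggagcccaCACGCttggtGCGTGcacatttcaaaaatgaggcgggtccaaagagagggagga
Pgk1 promoter, chrX:106186850-106187099, plus strand: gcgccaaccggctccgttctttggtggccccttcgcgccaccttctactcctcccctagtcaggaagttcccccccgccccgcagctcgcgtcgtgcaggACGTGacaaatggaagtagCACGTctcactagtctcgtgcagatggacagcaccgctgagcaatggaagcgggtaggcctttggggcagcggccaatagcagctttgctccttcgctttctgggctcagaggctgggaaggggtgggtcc
The Ldha window, the upstream one of the 2 that RefSeq gives for this gene, holds the letters 5 times, counting CACGTG once on each strand. The other Ldha window, at chr7:46846832-46847081, holds them only 1 time. The Gapdh and Pgk1 windows hold them 2 times each, as do those of Slc2a1 and Hk2, and those of Gpi1 and Tpi1 hold none. Of the 14 windows of the 10 genes, 10 hold at least 1 match, against 38.6% of 32851 promoters of the same length. Overlapping windows of Aldoa hold the same match and are each counted, so the windows are not independent. A match is a description of the letters, and no match says only that they are not in this window.

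Levels are given in TPM, transcript abundance divided by transcript length and scaled to a common library total. Library totals ran from 987468 to 992231 TPM. TPM keep no read depth, so no counting interval can be given and the error is the spread of 3 libraries. Kit, which encodes c-kit, followed the sort, with 0.520 to 3.03 TPM in the c-kit- group, 50.7 to 58.5 in the WT c-kit+ group and 70.3 to 85.7 in the libraries labelled IRF7-/-. Irf7 was 5.97 to 12.8 TPM in the libraries labelled IRF7-/-, above the 3.36 to 5.31 TPM of the WT c-kit+ group and below the 22.3 to 32.3 TPM of the c-kit- group, with no overlap, so it did not follow its label between the c-kit+ groups. The deposited value is for the whole gene, so whether it counts reads outside the replaced exons or from the cassette was not tested, and it does not check the deletion itself. That group is therefore named by its label throughout, and directions drawn from it rest on the label. The leukemia gene Hoxa9 and Ptprc, a gene of blood cells in general, were present in all libraries, at 162 to 279 and 104 to 299 TPM. Ptprc does not tell leukemia cells from normal blood cells. Of the markers of other cells, Pax5, Ebf1, Cd3e and Cdh5 stayed at or under 0.320 TPM, while the B-cell marker Cd79b was at 25.8 to 37.1 TPM, the endothelial marker Pecam1 at 37.9 to 106 and the stromal marker Lepr at 15.9 to 58.4. The list of stromal and endothelial markers was nearly all Pecam1 and Lepr. Its sum was 128 to 159 TPM in the c-kit- group and 59.7 to 70.4 in the WT c-kit+ group. In the libraries labelled IRF7-/- it was 125 to 157 TPM, so it moved between the c-kit+ groups. The other markers of the list, Col1a1, Col3a1, Cxcl12, Cdh5 and Kdr, were at or under 1.60 TPM in every library. The study also measured Pecam1 in its leukemia cells. The part of Pecam1 and Lepr in the results was not tested. The erythroid list summed to at most 18.3 TPM and the list of T and NK cells to at most 1.66 TPM in any library. A list of 24 genes of neutrophil and monocyte maturation, Mpo and Elane among them, took 2.69% to 5.41% of the total in the c-kit- group, 9.01% to 14.4% in the WT c-kit+ group and 2.47% to 2.95% in the libraries labelled IRF7-/-.

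The genes spanned a wide range of levels, which can be compared between genes because TPM are per length. The mean over the 9 libraries was 3163 TPM for Gapdh, 1294 TPM for Gpi1, 1031 TPM for Pkm, 842 TPM for Aldoa, 438 TPM for Ldha, 367 TPM for Tpi1, 332 TPM for Pgk1, 58.2 TPM for Pfkl, 38.9 TPM for Hk2 and 14.3 TPM for Slc2a1. Of the 10 genes, Slc2a1, Hk2 and Pfkl were thus the least abundant. Neighbours in this order were not always apart. In the c-kit- group the ranges of Gpi1, Pkm and Aldoa overlapped, as did those of Ldha and Pgk1, and in the WT c-kit+ group those of Ldha and Tpi1 and of Tpi1 and Pgk1. In the libraries labelled IRF7-/- no neighbours overlapped. The second Aldoa row is a separate gene model, at chr7:126800790-126809108 on the minus strand of GRCm38, and was at 0.910 to 2.58 TPM. The summed level of the 11 rows was 6182 to 6772 TPM in the c-kit- group, 6758 to 7542 in the WT c-kit+ group and 8496 to 9603 in the libraries labelled IRF7-/-, where it was above every library of the other groups. Gapdh made up between 39.0% and 44.4% of this sum in every library.

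**Figure D1:**
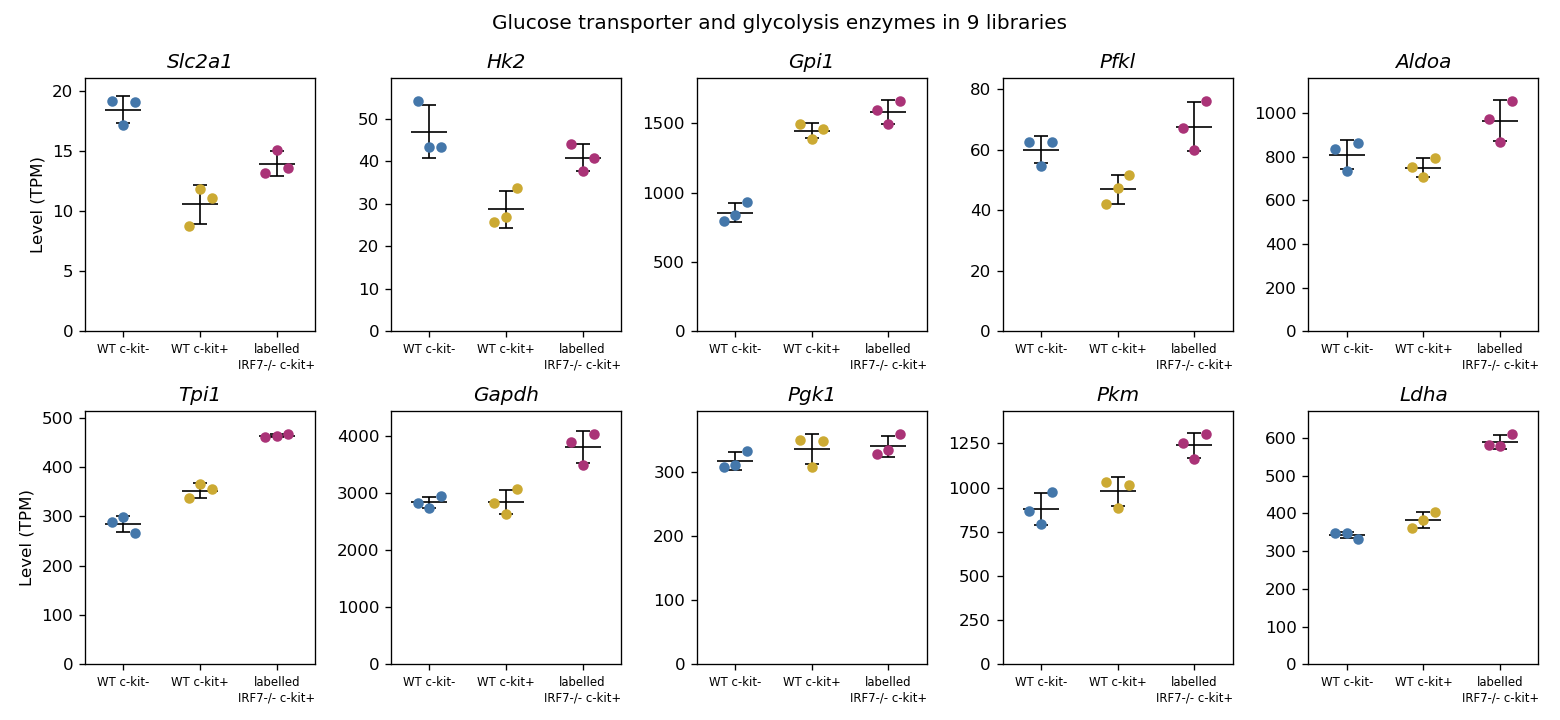
Level in TPM (vertical axes, from 0) of each of the 10 genes in the 3 groups, where points are libraries, long bars the mean and error bars the SD of 3 libraries. In the libraries labelled IRF7-/-, Gapdh, Tpi1, Pkm and Ldha lie above all other libraries, while Pgk1 stays between 309 and 359 TPM in all 9.

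The first comparison asked how the c-kit+ cells of the WT leukemia, the fraction studied for stem cell properties, differ from the c-kit- cells. Slc2a1, Hk2 and Pfkl fell, Gpi1 and Tpi1 rose, and Aldoa, Gapdh, Pgk1, Pkm and Ldha did not pass the test. The fall of Hk2 was not that of its whole step. The hexokinases Hk1 and Hk3 and the ADP-using glucokinase Adpgk were called higher in the same comparison, at log2 differences of 0.70, 0.36 and 1.74. The sum of Hk1, Hk2 and Hk3 was 423 to 479.5 TPM in the c-kit- group and 524 to 577 TPM in the WT c-kit+ group. For glucose entry, the sum of Slc2a1 and Slc2a3 was 26.1 to 53.9 and 37.8 to 57.9 TPM, with overlap. The transporter Slc2a6 is not in this sum. Slc2a6 was 46.9 to 57.7 TPM in the c-kit- group and 2.92 to 3.68 TPM in the WT c-kit+ group. Differences are given on the scale of log2(TPM + 1), which understates the change of genes with low levels. A gene was called at a Benjamini-Hochberg adjusted p under 0.05 over all genes tested with limma, and all 11 rows passed the filter on low levels. So 2 of 11 rows were called higher, where 14.0% of 13261 genes tested were, and 3 were called lower, where 27.6% were. No row also reached a log2 difference of 1 in size, as 4.83% of genes tested did upward and 9.61% downward.

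Slc2a1 (chr4:119108711-119137983), which encodes the transporter GLUT1, was 19.1, 17.1 and 19.1 TPM in the c-kit- group and 8.77, 11.9 and 11.1 TPM in the WT c-kit+ group. Every c-kit+ library was below every c-kit- library, with a log2 difference of -0.76 (SE 0.13, limma adjusted p = 0.00347). Hk2 (chr6:82725025-82774454), a hexokinase that traps glucose as glucose 6-phosphate, was 54.1, 43.4 and 43.5 TPM in the c-kit- group and 25.7, 26.8 and 33.7 TPM in the WT c-kit+ group. These groups did not overlap either, and the log2 difference was -0.69 (SE 0.13, limma adjusted p = 0.00637). Pfkl (chr10:77986947-78010083) encodes the liver form of phosphofructokinase, the committed step. It was 62.5, 54.7 and 62.7 TPM in the c-kit- group and 42.0, 47.2 and 51.5 TPM in the WT c-kit+ group, a log2 difference of -0.35 (SE 0.096, limma adjusted p = 0.0259). The groups were apart, but the call was lost in 8 of 18 alternative settings, with a limma adjusted p of up to 0.195.

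Gpi1 (chr7:34201330-34230336), the isomerase that makes fructose 6-phosphate, went the other way. It was 798, 836 and 933 TPM in the c-kit- group and 1494, 1385 and 1458 TPM in the WT c-kit+ group, and the lowest c-kit+ library was well above the highest c-kit- library. Its log2 difference of 0.76 (SE 0.083, limma adjusted p = 0.000552) stood 0.84 above the median of all genes tested, which was -0.082. Tpi1 (chr6:124810586-124814296), which interconverts the products of aldolase, was 289, 299 and 267 TPM in the c-kit- group and 336, 365 and 355 TPM in the WT c-kit+ group. The groups did not overlap, and the log2 difference was 0.31 (SE 0.066, limma adjusted p = 0.0104).

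Gapdh (chr6:125161715-125166467), which oxidizes glyceraldehyde 3-phosphate, was 2832, 2745 and 2942 TPM in the c-kit- group and 2825, 2636 and 3069.6 TPM in the WT c-kit+ group. The groups overlapped, and the log2 difference was -0.00017 with a 95% interval from -0.23 to 0.23 (limma adjusted p = 0.999). The difference turned to 0.16 with each library set to the same median. Aldoa, the aldolase of most tissues, Pgk1, the first ATP-yielding step, and Pkm, pyruvate kinase, overlapped between the groups as well, with log2 differences of -0.11, 0.079 and 0.16. For Pgk1 the 95% interval ran from -0.094 to 0.25. Ldha was 348, 348 and 332 TPM in the c-kit- group and 361, 383 and 404 TPM in the WT c-kit+ group, without overlap, at a log2 difference of 0.16 (limma adjusted p = 0.0877). In all, 6 of the 11 rows were free of overlap, where 54.4% of genes tested were.

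Small differences depended on the scale. With each library set to the same median, or quantile normalized, Pgk1 and Ldha joined Gpi1 and Tpi1 as called higher and Pfkl was not called. The calls over all genes, 1860 higher and 3659 lower as deposited, were 3053 and 2596 with the same median, 3044 and 2590 with quantile normalization and 2703 and 2799 without the myeloid maturation genes and with the rest rescaled. The share of these genes in the total was larger in the WT c-kit+ group than in the c-kit- group, and their part in the result was not tested. Single genes went both ways: of the 24, 11 higher and 6 lower were called, where 14.0% higher and 27.6% lower were over all genes tested. Their log2 differences ran from -3.79 to 4.04.

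The second comparison asked what differs between the c-kit+ cells of the leukemia labelled IRF7-/- and those of the WT leukemia. Of the 10 genes 8 were higher in the libraries labelled IRF7-/- on the deposited scale, a number that fell under other scalings given below. Slc2a1, Hk2, Pfkl, Aldoa, Tpi1, Gapdh, Pkm and Ldha rose, no row fell, and Gpi1, Pgk1 and the second Aldoa row did not pass the test. These are 8 of 11 rows called higher by limma, where 31.9% of 13238 genes tested were, and 0 called lower, at an adjusted or an unadjusted p, where 16.1% of genes were at an adjusted p. Among genes with a mean of at least 100 TPM, 45.6% were called higher and the median log2 difference was 0.20, against 0.12 for all genes tested and 0.38 for the 11 rows. No row reached a log2 difference of 1, a size that 6.30% of genes tested passed upward and 5.39% downward.

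Ldha (chr7:46841475-46855627), the lactate dehydrogenase subunit that favours lactate, had the largest difference of the 10 genes. It was 580.1, 578 and 609 TPM in the libraries labelled IRF7-/- against 361, 383 and 404 TPM in the WT c-kit+ group. No library overlapped, and the log2 difference was 0.62 (SE 0.061, limma adjusted p = 0.000478). Gapdh was 3898, 3490.0 and 4025 TPM in the libraries labelled IRF7-/-, and the highest library of the WT c-kit+ group was at 3069.6 TPM. The groups were apart, at a log2 difference of 0.42 (SE 0.096, limma adjusted p = 0.0116), or 0.30 above the median of all genes tested. The Gapdh call was lost in 6 of 17 alternative settings. Tpi1 was 460.0, 463 and 466 TPM in the libraries labelled IRF7-/-, with very little spread, at a log2 difference of 0.40 (SE 0.052, limma adjusted p = 0.00138).

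Slc2a1, Hk2 and Pfkl, lower in the WT c-kit+ group than in the c-kit- group, were higher here. The first and second comparisons use the same WT c-kit+ libraries with opposite sign. Low values in these libraries alone thus give a fall and then a rise. Set against the c-kit- group, the libraries labelled IRF7-/- had Slc2a1 called lower, while Hk2 at -0.19 and Pfkl at 0.17 did not pass. The steps of these genes did not all follow. The sum of Slc2a1 and Slc2a3 was 37.8 to 57.9 TPM in the WT c-kit+ group and 17.0 to 18.9 TPM in the libraries labelled IRF7-/-, and that of Hk1, Hk2 and Hk3 was 524 to 577 and 493 to 515 TPM. Hk3 was called lower, at a log2 difference of -0.26. Pfkl was 67.1, 59.9 and 75.9 TPM in the libraries labelled IRF7-/-, a log2 difference of 0.52 (SE 0.11, limma adjusted p = 0.00867). Hk2 was 44.2, 37.7 and 40.8 TPM, a log2 difference of 0.50 (SE 0.12, limma adjusted p = 0.0120). Both groups of values lay above those of the WT c-kit+ group. Slc2a1 was 13.2, 15.1 and 13.6 TPM, above every library of the WT c-kit+ group and below every library of the c-kit- group. Its log2 difference of 0.38 (SE 0.13, limma adjusted p = 0.0453) was close to the threshold, and the call was lost or its direction turned in 11 of 18 alternative settings.

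Aldoa (chr7:126795234-126800751) was 975, 865 and 1053 TPM in the libraries labelled IRF7-/- and 752, 706 and 795 TPM in the WT c-kit+ group, a log2 difference of 0.36 (SE 0.089, limma adjusted p = 0.0158). Pkm (chr9:59656368-59679375), the last ATP-yielding step, was 1255, 1160.0 and 1300.4 TPM in the libraries labelled IRF7-/- against 1033, 886 and 1013 TPM in the WT c-kit+ group. Its log2 difference was 0.34 (SE 0.083, limma adjusted p = 0.0146), and neither gene overlapped between the groups. The calls of Aldoa and Pkm were each lost or turned in 7 of 18 alternative settings, with limma adjusted p of up to 0.596 and 0.533. Pgk1 (chrX:106187100-106203699) stood aside from these neighbours. It was 329, 334 and 359 TPM in the libraries labelled IRF7-/- and 351, 309 and 349 TPM in the WT c-kit+ group, with overlap and a log2 difference of 0.020 (95% interval from -0.15 to 0.19, limma adjusted p = 0.836). Gpi1 was 1594, 1492 and 1658 TPM in the libraries labelled IRF7-/-, and its lowest library was just under the highest of the WT c-kit+ group, at a log2 difference of 0.13 (limma adjusted p = 0.169). In all, 8 of 11 rows did not overlap, where 59.1% of genes tested did not.

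The number of calls rested on the scale and on single libraries. It was 5 with each library set to the same median, 4 with quantile normalization and 4 without the myeloid maturation genes. It was 2 after division by the reference genes described below, with 1 called lower, and 0 after division by Gapdh. Without replicate 1 or without replicate 3 of the libraries labelled IRF7-/- it was 4 and 4. Leaving out each library in turn also lowered the calls over all genes, to 2935 to 4118 higher and 1440 to 1924 lower. The calls over all genes, 4222 higher and 2135 lower as deposited, were 3319 and 2602 with the same median, 3255 and 2657 with quantile normalization, 2839 and 2934 without the myeloid maturation genes, 2060 and 3933 after division by the reference genes and 1090 and 4656 after division by Gapdh. The myeloid maturation genes took a smaller share of the total in the libraries labelled IRF7-/- than in the WT c-kit+ group, as given above, and their part in the result was not tested.

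**Figure D2:**
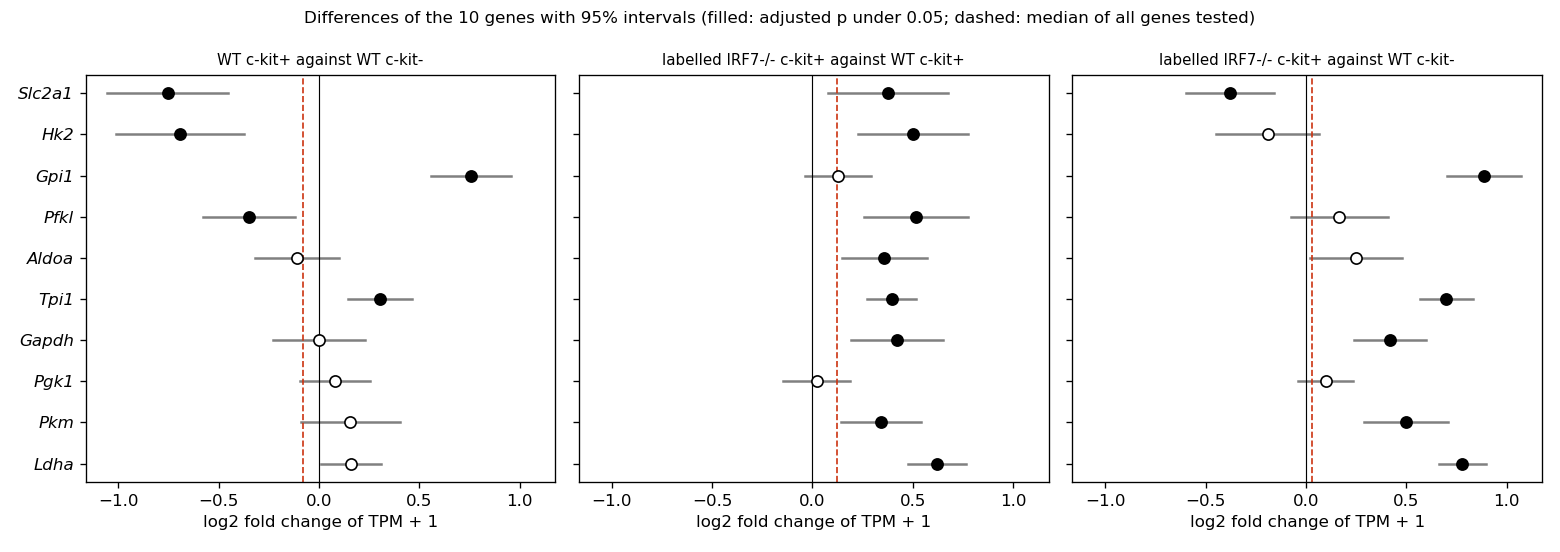
Difference in log2(TPM + 1) (horizontal axis) of each gene in the 3 comparisons, with 95% intervals from limma, where filled points have an adjusted p under 0.05 and the dashed line is the median of all genes tested. Slc2a1, Hk2 and Pfkl lie left of 0 for the WT c-kit+ group against the c-kit- group and right of 0 for the libraries labelled IRF7-/- against the WT c-kit+ group, where Pgk1 and Gpi1 are open points. Both of these comparisons use the same WT c-kit+ libraries.

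The other comparison set the libraries labelled IRF7-/- against the c-kit- group and shares its libraries with the first and second, so its values are not a separate check of them. Gpi1, Ldha and Tpi1 had the largest log2 differences, at 0.89 (limma adjusted p = 0.000122), 0.78 (limma adjusted p = 3.32e-05) and 0.70 (limma adjusted p = 8.61e-05). Pkm at 0.50 (limma adjusted p = 0.00285) and Gapdh at 0.42 (limma adjusted p = 0.00313) were also higher. So 5 of 11 rows were called higher, where 30.7% of 13510 genes tested were. Slc2a1 was the 1 row called lower, where 28.7% were, at -0.38 (limma adjusted p = 0.0109). Hk2 at -0.19, Pfkl at 0.17, Aldoa at 0.25 and Pgk1 at 0.099 did not pass, and 7 rows did not overlap, where 67.1% of genes tested did not. No row reached a log2 difference of 1, where 8.40% did upward and 11.9% downward. After division by the reference genes 3 rows were called higher and 2 lower, with 2488 higher and 5609 lower over all genes in place of 4142 and 3881, and after division by Gapdh 3 and 4, with 1627 and 6446.

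Each step can be served by several genes, and 26 further genes of the pathway were read: other transporters, isozymes, the steps not among the 10 genes and the lactate carriers. Of these, 18 passed the filter of 1 TPM in 3 of 6 libraries, and those that did not include Slc2a4, Hkdc1, Pgk2 and Pklr. For the WT c-kit+ group against the c-kit- group, 6 higher and 6 lower were called, where 14.0% higher and 27.6% lower were over all genes tested. For the libraries labelled IRF7-/- the counts were 8 higher and 4 lower against the WT c-kit+ group, where 31.9% higher and 16.1% lower were, and 6 higher and 5 lower against the c-kit- group, where 30.7% higher and 28.7% lower were. The share of a gene within its step is a ratio inside 1 library and so does not depend on how libraries are scaled. Shares were compared by exact two-sided permutation tests, 45 in all, where 3 libraries against 3 cannot go below p = 0.1. After Benjamini-Hochberg adjustment the lowest value of these permutation tests was 0.125.

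At glucose entry Slc2a3, which encodes the high-affinity transporter GLUT3, stood apart between the c-kit+ groups. It was 7.36, 8.91 and 34.8 TPM in the c-kit- group, 49.1, 25.9 and 41.5 TPM in the WT c-kit+ group and 4.78, 3.81 and 3.37 TPM in the libraries labelled IRF7-/-. All of the libraries labelled IRF7-/- were below all others, at a log2 difference of -2.96 (SE 0.24, limma adjusted p = 0.000232) from the WT c-kit+ group. Slc2a1 therefore made up 15.1% to 31.4% of the sum of both transporters in the WT c-kit+ group and 73.4% to 80.1% in the libraries labelled IRF7-/-, a difference of 55.2 percentage points (exact permutation p = 0.1). In the c-kit- group its share was 72.2%, 65.8% and 35.4%, and the library with the low share is the one with the high Slc2a3. That library also had the largest share of myeloid maturation genes of its group, 5.41% against 3.25% and 2.69%. Whether this share bears on the Slc2a3 level was not tested, and in bulk RNA more cells of a type and more RNA per cell cannot be told apart. The sum of both transporters was 17.0 to 18.9 TPM in the libraries labelled IRF7-/-, under the 26.1 to 53.9 TPM of the c-kit- group and the 37.8 to 57.9 TPM of the WT c-kit+ group. Slc2a6, which encodes a transporter of lysosomes, was 52.4 ± 5.44 TPM (SD, n = 3) in the c-kit- group, 3.28 ± 0.381 in the WT c-kit+ group and 10.4 ± 0.629 in the libraries labelled IRF7-/-. Its groups were all apart, and its log2 differences in the first and second comparisons were -3.64 (limma adjusted p = 8.94e-06) and 1.42 (limma adjusted p = 0.000232).

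Hk2 was a small part of the hexokinase transcripts. Hk3, a hexokinase of myeloid cells, held 73.8% to 82.8% of the sum of Hk1, Hk2 and Hk3 in each library, at 337 to 477 TPM. Hk2 held 10.6% ± 1.79 (SD, n = 3) in the c-kit- group, 5.23% ± 0.826 in the WT c-kit+ group and 8.07% ± 0.476 in the libraries labelled IRF7-/-. Hk1, the hexokinase of most tissues, was higher in both c-kit+ groups than in the c-kit- group, with 38.3, 39.3 and 48.1 TPM in the c-kit- group, 73.4, 63.1 and 68.4 TPM in the WT c-kit+ group and 90.8, 80.0 and 91.8 TPM in the libraries labelled IRF7-/-. Its log2 difference between the c-kit+ groups was 0.35 (limma adjusted p = 0.0120). Adpgk, a glucokinase that uses ADP, was 242, 139 and 211 TPM in the WT c-kit+ group and 46.7, 48.7 and 47.4 TPM in the libraries labelled IRF7-/-, a log2 difference of -1.99 (SE 0.19, limma adjusted p = 0.000434).

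Pfkl shared its step with Pfkp, the platelet form of phosphofructokinase. Pfkp was 30.5, 29.5 and 32.9 TPM in the WT c-kit+ group and 79.1, 66.1 and 82.4 TPM in the libraries labelled IRF7-/-, a log2 difference of 1.26 (SE 0.095, limma adjusted p = 0.000185). The sum of Pfkl, Pfkm and Pfkp was 123 ± 1.16 TPM (SD, n = 3) in the c-kit- group, 83.2 ± 5.55 in the WT c-kit+ group and 153 ± 15.5 in the libraries labelled IRF7-/-. Pfkl held 56.3% ± 2.01 of it in the WT c-kit+ group and 44.3% ± 1.11 in the libraries labelled IRF7-/-, without overlap. The bifunctional enzymes that set the level of an activator of phosphofructokinase went different ways. Pfkfb3 was called higher in both c-kit+ groups than in the c-kit- group, by 1.29 in the WT c-kit+ group and 1.05 in the libraries labelled IRF7-/- on the log2 scale, and Pfkfb4 was called lower, at -0.73 and -1.48. The first Pfkfb4 call was lost in 6 of 18 alternative settings, among them no filter on low levels, at a limma adjusted p of 0.0592, and the same median, at 0.0600. Tigar, which breaks that activator down, was 8.56, 10.2 and 9.33 TPM in the WT c-kit+ group and 19.9, 22.3 and 22.5 TPM in the libraries labelled IRF7-/-, a log2 difference of 1.12 (limma adjusted p = 0.000293). Of the 5 genes of this control list, 1 higher and 1 lower were called in that comparison, where 31.9% higher and 16.1% lower were over all genes tested.

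Further down, Aldoa held 98.2% or more of aldolase and Eno1 97.6% or more of enolase transcripts in every library. Pgam1, the mutase between Pgk1 and enolase, was 397, 430.3 and 452 TPM in the WT c-kit+ group and 612, 666 and 626 TPM in the libraries labelled IRF7-/-, a log2 difference of 0.57 (limma adjusted p = 0.000965). Eno1 was 831, 728 and 827 TPM in the WT c-kit+ group and 678, 646 and 775 TPM in the libraries labelled IRF7-/-, with overlap and a log2 difference of -0.19 (limma adjusted p = 0.134). Of the abundant lower steps, Gapdh, Pgam1, Pkm and Ldha were thus called higher and Pgk1 and Eno1 were not. At the last step, Ldhb, the subunit that favours pyruvate, was 18.4, 15.4 and 18.0 TPM in the c-kit- group, 47.7, 51.2 and 60.6 TPM in the WT c-kit+ group and 21.9, 20.4 and 23.1 TPM in the libraries labelled IRF7-/-. It was highest in all 3 libraries of the WT c-kit+ group, with log2 differences of 1.56 (limma adjusted p = 0.000103) from the c-kit- group and -1.24 (limma adjusted p = 0.000245) between the c-kit+ groups. The Ldha share was therefore 95.2% ± 0.499 (SD, n = 3) in the c-kit- group, 87.8% ± 0.774 in the WT c-kit+ group and 96.4% ± 0.132 in the libraries labelled IRF7-/-, with no overlap between any pair of groups (exact permutation p = 0.1 each).

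**Figure D3:**
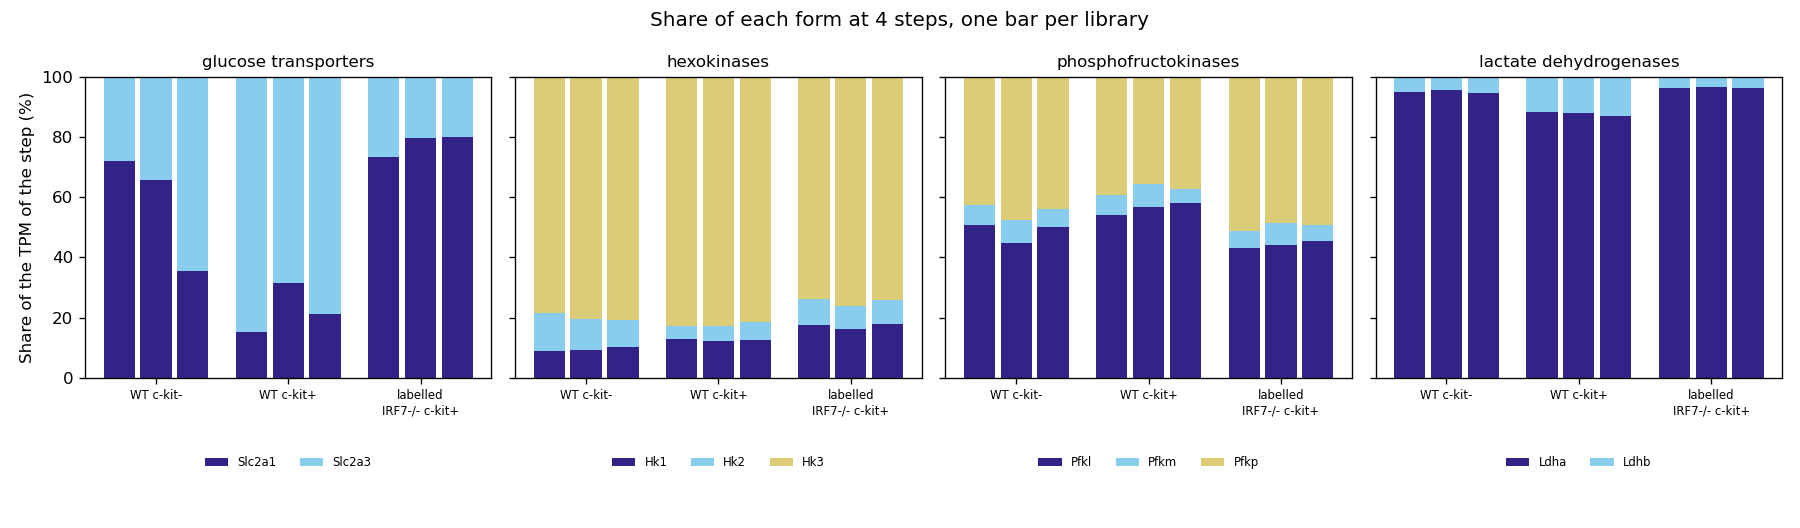
Share in percent of the summed TPM of each step (vertical axis) for the forms at 4 steps, with one bar per library in the 3 groups. Slc2a1 holds the smaller share in all 3 libraries of the WT c-kit+ group, Hk3 the largest part of hexokinase in all 9, and Ldhb is largest in the WT c-kit+ group.

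The lactate carriers also differed between groups. Slc16a3, the carrier known for lactate export, was 51.5, 35.5 and 48.8 TPM in the WT c-kit+ group and 107, 94.1 and 116 TPM in the libraries labelled IRF7-/-, a log2 difference of 1.22 (SE 0.15, limma adjusted p = 0.00111). Slc16a1 was 3.88 to 5.48 TPM in the c-kit- group, 9.96 to 14.3 in the WT c-kit+ group and 13.6 to 15.1 in the libraries labelled IRF7-/-, and was called higher in both c-kit+ groups than in the c-kit- group, by 1.19 and 1.51 on the log2 scale. The pentose phosphate branch, which leaves the pathway at glucose 6-phosphate, was read by its own list. Of its 8 genes, 6 higher and 0 lower were called by limma for the WT c-kit+ group against the c-kit- group, where 14.0% higher and 27.6% lower were over all genes tested. For the libraries labelled IRF7-/- the counts were 0 higher and 4 lower against the WT c-kit+ group, where 31.9% higher and 16.1% lower were, and 5 higher and 1 lower against the c-kit- group, where 30.7% higher and 28.7% lower were. The counts of 0 were also 0 at an unadjusted p. G6pdx, the entry enzyme of the branch, was 191, 133 and 183 TPM in the WT c-kit+ group and 75.7, 89.3 and 80.6 TPM in the libraries labelled IRF7-/-, a log2 difference of -1.03 (limma adjusted p = 0.00175). Of 12 tested genes of pyruvate entry into the mitochondrion, 4 higher and 2 lower were called in that comparison, and none reached a log2 difference of 1. These are 33.3% and 16.7%, near the 31.9% and 16.1% of all genes tested.

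Genes outside glycolysis that are known targets of the hypoxia-inducible factor did not move as 1 group. Of 12 tested, 4 higher and 5 lower were called for the WT c-kit+ group against the c-kit- group, where 14.0% higher and 27.6% lower were over all genes tested. For the libraries labelled IRF7-/- against the WT c-kit+ group the counts were 6 higher and 5 lower, where 31.9% higher and 16.1% lower were. The median log2 difference was 0.16 against 0.12 for all genes tested. Vegfa, a growth factor for vessels, was 4.30, 9.54 and 20.6 TPM in the c-kit- group and 110.2, 98.8 and 95.4 TPM in the WT c-kit+ group, a log2 difference of 3.26 (SE 0.46, limma adjusted p = 0.00164), while Ndrg1 was at -1.31 in the same comparison. Ankrd37 was called lower in the WT c-kit+ group than in the c-kit- group, at -1.89, and higher in the libraries labelled IRF7-/- than in the WT c-kit+ group, at 1.08. Of 6 regulators of the pathway 4 were tested between the c-kit+ groups. Of these 1 higher and 2 lower were called, where 31.9% higher and 16.1% lower were over all genes tested. Hif1a itself was 29.8 to 32.0 TPM in the WT c-kit+ group and 33.5 to 40.3 TPM in the libraries labelled IRF7-/-, a log2 difference of 0.24 (limma adjusted p = 0.0460) that was lost or turned in 12 of 18 alternative settings and stood at -0.17 after division by Gapdh. Myc was 46.6 to 62.0 TPM in the c-kit- group, 83.9 to 117 in the WT c-kit+ group and 107 to 136 in the libraries labelled IRF7-/-, and the difference of 0.25 (limma adjusted p = 0.194) between the c-kit+ groups did not pass. A list of 20 genes of S phase and mitosis summed to 2140.2 to 2474 TPM in the c-kit- group, 2544 to 2917 in the WT c-kit+ group and 3264 to 3399 in the libraries labelled IRF7-/-. Of these genes 10 higher and 0 lower were called by limma between the c-kit+ groups, with none lower at an unadjusted p either, and of the 24 genes of myeloid maturation 3 higher and 18 lower, where 31.9% higher and 16.1% lower were over all genes tested. The part of either list in the result was not tested.

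Gapdh was then read as a reference gene, beside its pathway neighbours and 16 genes in common use as references. Its coefficient of variation over the 9 libraries was 16.3%, rank 11 of the 26 genes. Of 3117 genes with a mean of at least 50 TPM, 47.9% varied less, and the median of these genes was 16.8%. Ywhaz varied least at 4.21%, followed by Pgk1 at 5.75% and Sdha at 8.60%. Actb was at 18.6%, B2m at 30.6% and Tfrc at 45.9%. Within a group Gapdh varied by 3.48% in the c-kit- group, 7.64% in the WT c-kit+ group and 7.35% in the libraries labelled IRF7-/-, each less than over all libraries. Its largest gap between group means was 0.42 on the log2 scale, against 0.10 for Pgk1 and 0.12 for Ywhaz.

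**Figure D4:**
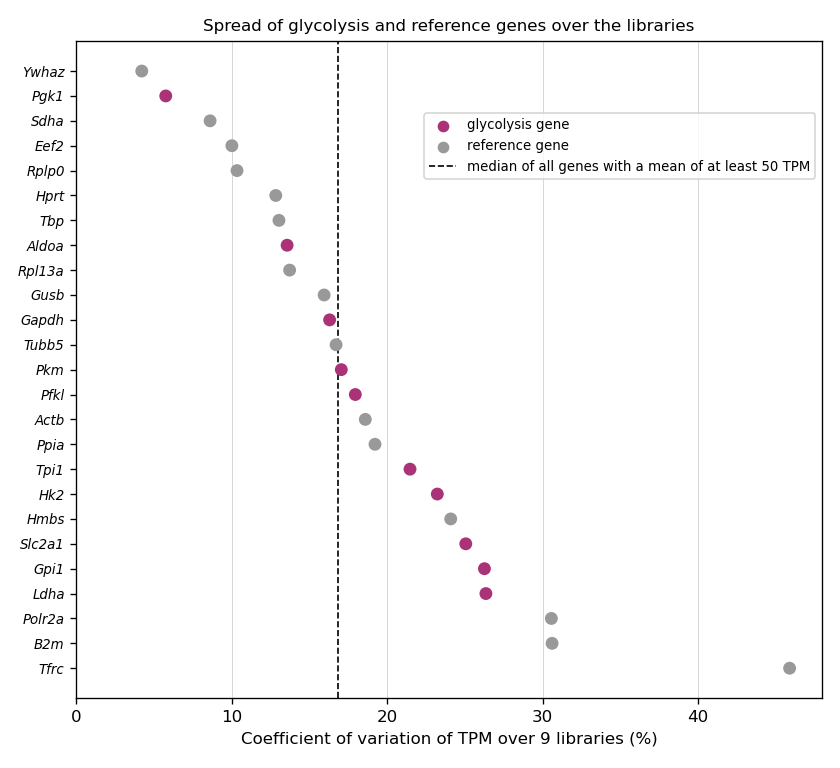
Coefficient of variation of TPM over 9 libraries (horizontal axis, in percent) of the 10 glycolysis genes and 15 of the 16 reference genes, in rising order, where the dashed line is the median of 3117 genes with a mean of at least 50 TPM. Gapdh at 16.3% lies next to that line, and Pgk1 at 5.75% has the lowest value of the glycolysis genes.

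The reference genes were not level in the libraries labelled IRF7-/-. Against the WT c-kit+ group, 10 of 16 were called higher and 2 lower, where 31.9% higher and 16.1% lower were over all genes tested and 45.6% higher and 14.7% lower among genes with a mean of at least 100 TPM. The list had a median log2 difference of 0.29. Ppia was at 0.48, B2m at 0.84 and Polr2a at 0.89, while Hprt at -0.19 was called lower. Actb at 0.12, Ywhaz at 0.063 and Tbp at 0.24 did not pass the test. The geometric mean of the list was 369.9 to 391 TPM in the c-kit- group, 375 to 388 in the WT c-kit+ group and 449 to 456 in the libraries labelled IRF7-/-. Gapdh lay above this mean by 2.91 ± 0.0820, 2.90 ± 0.128 and 3.07 ± 0.115 log2 units (SD, n = 3) in the 3 groups. It lay above the geometric mean of the other 9 glycolysis genes by 3.73, 3.78 and 3.84 log2 units. After division by the reference genes the log2 difference of Gapdh between the c-kit+ groups was 0.17 (limma adjusted p = 0.206).

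Taking Gapdh as the reference, as quantitative PCR often does, lowers every well-expressed gene by about the log2 difference of Gapdh itself, 0.42 between the c-kit+ groups, and over all genes 1090 higher and 4656 lower were then called in place of 4222 and 2135. With each library divided by its Gapdh level, 0 of the other 10 rows were called higher by limma for the libraries labelled IRF7-/- against the WT c-kit+ group, at an adjusted or an unadjusted p, in place of 7. Pgk1 at -0.40 (limma adjusted p = 0.00883) and Gpi1 at -0.29 (limma adjusted p = 0.0463) were called lower. On this scale Slc2a1 was at -0.011, Tpi1 at -0.024, Aldoa at -0.061, Pkm at -0.077, Hk2 at 0.093, Pfkl at 0.10 and Ldha at 0.20. For the WT c-kit+ group against the c-kit- group, where Gapdh itself was at -0.00017, the division left Gpi1, Slc2a1, Hk2 and Pfkl called and ended the call of Tpi1 at a log2 difference of 0.31 (limma adjusted p = 0.0634).

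The genes whose profile over the 9 libraries lay nearest to that of Gapdh were found by the root mean square difference of centred log2 levels among 3116 genes. They were Gm12671 at 0.041, Hsbp1 at 0.058, Tomm6 at 0.059, Lamtor4 at 0.063 and Tmem208 at 0.063. Gm12671 is a copy of Gapdh, and its row may hold reads of Gapdh itself. Among the 10 genes, Aldoa at rank 22 and Pkm at rank 36 came nearest. Ldha was at rank 594, Pfkl at rank 637, Tpi1 at rank 706, Pgk1 at rank 802 and Gpi1 at rank 1882. Slc2a1 and Hk2, with means under 50 TPM, were not ranked, and ranks of further pathway genes are not given. The likeness rests on libraries of 3 groups and is a description.

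Gapdh has many near-identical copies in the mouse genome, and GENCODE M21 on GRCm38 holds 174 genes with a transcript that matches it at 90% identity or more over at least 300 bases. Of these, 50 were listed at 0 in all libraries and 24 exceeded 1 TPM. Gm7336 was 526 to 592 TPM in the c-kit- group, 510.3 to 583 in the WT c-kit+ group and 758 to 842 in the libraries labelled IRF7-/-. Gm12671 and Gm10359, which match the Gapdh transcript at 100% over 1002 bases, were 292 to 462 and 278 to 443 TPM over all libraries. All copies together made up 29.9% to 32.1% of the sum of Gapdh and copies. How reads that match several places were shared out is not given in the sources used here, so the split between Gapdh and its copies is uncertain. The copies rose with the gene: for the libraries labelled IRF7-/- against the WT c-kit+ group the log2 difference was 0.51 (limma adjusted p = 0.00211) for Gm7336, 0.42 (limma adjusted p = 0.0107) for Gm12671 and 0.51 (limma adjusted p = 0.00135) for Gm10359. The rows of the copies may hold reads of Gapdh itself, so these values are not separate from its rise. With the copies added, Gapdh stood at 4088, 4107 and 5559 TPM in the 3 groups. For the other 9 genes, copies made up at most 0.579% of the sum.

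**Figure D5:**
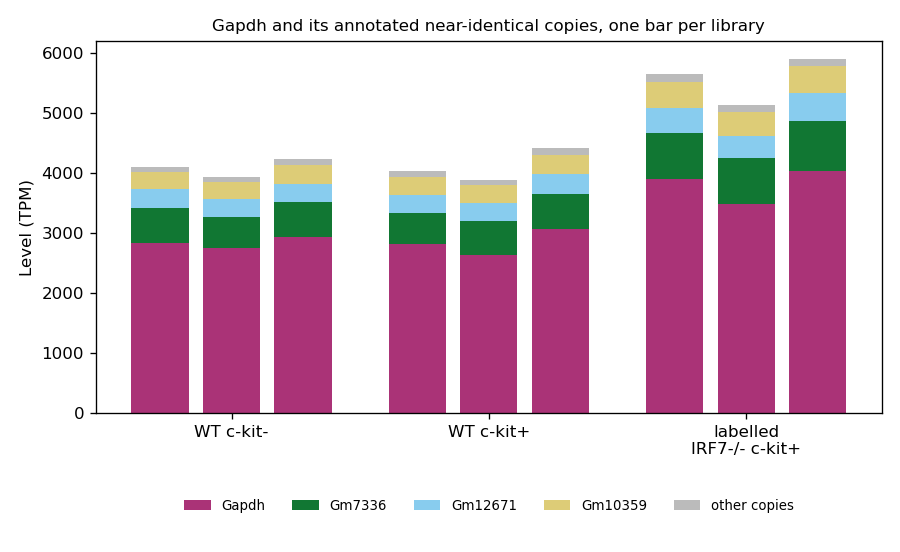
Level in TPM (vertical axis, from 0) of Gapdh and, stacked above it, of its annotated near-identical copies, with one bar per library. The copies add 1183 to 1874 TPM and are largest in the 3 libraries labelled IRF7-/-.

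Some of the genes share their place with other annotated genes, and strand use in the counting is not given in the sources used here. Reads of a gene and of one on the other strand could then not be told apart. Gapdh overlaps Iffo1, Tpi1 overlaps Spsb2, Aldoa overlaps Fam57b, Gpi1 overlaps Gm26762, Hk2 overlaps Gm17034, Slc2a1 overlaps Mir1957a, Gm12867 and Gm12868, and Pkm overlaps Gm49759. No annotated gene overlaps Pfkl, Pgk1 or Ldha.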

How the data were processed

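Bulk RNA of 9 libraries, 3 per group, was analysed. The authors deposited 1 table of TPM per gene, which already holds their alignment, quantification and scaling by length and library total. The unit was read from the values, and the aligner, counter and build are not given in the sources used here. The labels name the Illumina TruSeq RNA kit v2, whereas the paper calls the assay a microarray. All 55536 identifiers are in GENCODE M21 (GRCm38), which gave coordinates. Value columns were matched to their samples by name. The column name for replicate 3 of the WT c-kit+ group ends in an extra digit, and it was assigned because it matched no other sample. TPM keep no depth, so precision is known only from 3 libraries per group.

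limma 3.58.1 (R 4.3.3, lmFit and eBayes with trend) was run on log2(TPM + 1) for each pair of groups, keeping genes that reached 1 TPM in 3 or more of 6 libraries, with Benjamini-Hochberg adjustment over all genes tested. Exact permutation tests were two-sided. Copies of each gene were found with blastn 2.17.0, and Python 3.11.15, pandas 2.3.3 and matplotlib 3.10.9 were used for sequences and plots. Promoters are those of RefSeq. The fit was tested on simulated data.

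The 10 genes and the lists (other pathway genes, control enzymes, pentose phosphate, pyruvate entry, hypoxia targets, regulators, references, markers) were chosen with earlier results of these data known. Named from the lists were isozymes of the 10 genes and genes with an adjusted p under 0.05 and a log2 fold change of at least 1, plus the 5 genes nearest to Gapdh, Irf7 and Kit. Pgam1, Eno1, Hif1a and the named reference genes outside this rule were chosen after their values were seen. Alternatives were other filters, pseudocounts and scalings, 1 fit of all libraries, the replicate block, an unadjusted p and leaving out each library. Values of some genes of the lists are not reported here.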

Additional observations from a re-analysis of the deposited data

How the results depend on the processing

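Values of genes here are log2 differences. Of the alternative values of single genes, 2254 kept direction and side of the threshold, 207 lost a call, 16 gained one and 51 turned. For the WT c-kit+ group against the c-kit- group, quantile normalization called 4 glycolysis rows and 3044 genes higher and put Aldoa at 0.0044 and the second Aldoa row at 0.067. The same median called 4 rows and 3053 genes higher and put Aldoa at 0.047, its second row at 0.13 and Gapdh at 0.16. Without the myeloid maturation genes these were 0.018, 0.059 and 0.13, division by Gapdh left 1 row called higher, and a fit with the copies added, chosen after the data were seen, put Gapdh at 0.0055. For the libraries labelled IRF7-/- against the WT c-kit+ group, rows called higher numbered 4 with quantile normalization, where Gpi1 was -0.014 and Pgk1 -0.061, and 5 with the same median, where Pgk1 was -0.061. They numbered 4 without the myeloid maturation genes, with Gpi1 at -0.014 and Pgk1 at -0.12. Division by the reference genes called 2 rows higher and 1 lower, with 2060 higher and 3933 lower over all genes, Gpi1 at -0.12, Pgk1 at -0.23 and Hif1a at -0.0032. Division by Gapdh called 0 and 2 rows, 4 and 8 other pathway genes and 1090 and 4656 of all genes, with Slc2a1 at -0.011, Gpi1 at -0.29, Aldoa at -0.061, Tpi1 at -0.024, Pgk1 at -0.40, Pkm at -0.077, Hk1 at -0.061, Bpgm at -0.020, Dld at -0.12, Car9 at -0.020 and Hif1a at -0.17. For the libraries labelled IRF7-/- against the c-kit- group, division by the reference genes called 3 rows higher and 2 lower and 2488 and 5609 of all genes, with Pfkl at -0.087, Aldoa at -0.0079, Pgk1 at -0.16 and Dld at -0.041. Division by Gapdh called 3 and 4 rows, 3 and 9 other pathway genes and 1627 and 6446 of all genes, with Pfkl at -0.25, Aldoa at -0.17, Pgk1 at -0.32, Ldhb at -0.079, Tkt at -0.058, Dld at -0.20 and Mxi1 at -0.14. With copies added, Gapdh stood at 4088, 4107 and 5559 TPM. For the libraries labelled IRF7-/- against the WT c-kit+ group, leaving out each library called 4 to 8 rows and 2935 to 4118 genes higher. Pgk1 was then at -0.040 to 0.051. The number of rows was 4 without replicate 1 and without replicate 3 of the libraries labelled IRF7-/-. Leaving out each library gave -0.057 to 0.053 for Gapdh for the WT c-kit+ group against the c-kit- group. For the second Aldoa row it gave -0.21 to 0.15, -0.34 to 0.065 and -0.37 to 0.040 in the 3 comparisons. Deviations of libraries with equal replicate numbers correlated at -0.059 to 0.26, not over 0.1 in all pairs, so the replicate block is given here only: it called 2 rows higher and 3 lower, 8 and 0, and 6 and 1, with Aldoa gained in the last (limma adjusted p = 0.0103). The cause of these changes was not tested. Slc2a1, Hk2 and Gpi1 in the first comparison, and Slc2a1, Gpi1, Tpi1 and Ldha in the last, kept direction and call in all 18 alternatives. The labels do not say that libraries come from separate mice, and TPM keep no depth.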
